A study of Mus musculus with 6 samples.

Results

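The genes described here encode the heat shock proteins that handle protein folding in the cytosol, together with the factor that switches on their transcription. They were chosen by symbol, 10 genes among 25001 loci measured, with earlier results of these data known. The genes are Hspa1a, Hspa1b, Hspa8, Hspb1, Hsph1, Hsp90aa1, Dnajb1, Bag3, Hspd1 and Hsf1. A row with the gene's own symbol was found for 9 of the 10, with 1 row each. No row carried the symbol Hspa1b, because the row named Hspa1a also spanned the Hspa1b gene. Although they are grouped as cytosolic heat shock proteins, Hspd1 is the chaperonin of the mitochondrial matrix and Hsf1 is a transcription factor.

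Levels were measured by RNA sequencing in 6 libraries of mouse 427.1.86 thymoma cells (427 cells), with 1 library for each condition. 427 cells stably carrying the pSUPER vector, and 427 cells carrying a knockdown of Sppl2b (SP2bKD cells), were kept without serum for 2 h and then given DMSO or 1 µM PMA for 2 h. SP2bKD cells were also transfected with a GFP vector alone (GFP) or with GFP plus the Flag-tagged intracellular domain of epithin/PRSS14, residues 1 to 55 (EICD), and GFP-positive cells were collected by sorting 24 h after transfection. SPPL2b is an intramembrane protease, and PMA, a phorbol ester that activates protein kinase C, triggers the shedding of the epithin ectodomain. All 6 conditions share the 427.1.86 background, and every GFP and EICD cell also carries the knockdown. The labels call the knockdown reagent an siRNA, whereas the study's methods describe an shRNA in single-cell clones. The transfected cells were of 1 such clone, and the clone of the DMSO and PMA libraries is not given in the sources used here. With 1 library per condition there is no replicate spread, and no test was made. A gene is called higher or lower when its FPKM (fragments per kilobase of transcript, scaled to the depth of the library) differed by more than 1.5-fold, and each call describes 2 libraries, not 2 conditions.

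The libraries held an estimated 24900000 to 28800000 fragments, and between 10555 and 10873 loci reached an FPKM of 1. Thymic epithelial markers were present, with 7 of 8 at an FPKM of 1 or more in every library and Psmb11 at or near 0. No thymocyte marker of 6 and no fibroblast marker of 4 reached that level in any library. The targeted gene Sppl2b was not lower in the libraries labelled as knockdown: it stood at 9.90 (DMSO) and 6.86 (PMA) in 427 cells and at 13.4 and 9.37 in SP2bKD cells, so the comparisons between the lines are between libraries labelled as such. The transfection did show, since St14, the gene of epithin/PRSS14, was at 614.5 FPKM with EICD and at 69.7 with GFP alone. Both sorted libraries also had high Fos, at 148.4 FPKM with GFP and 244.0 with EICD, against 0.82 to 5.93 in the other 4 libraries. The part of the sorting and transfection in the values below was not tested.

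Heat shock proteins are chaperones that bind unfolded segments of other proteins and help them to fold, refold or be degraded. HSP70 proteins do this in cycles of ATP binding and hydrolysis, in which J-domain proteins such as DNAJB1 deliver substrates and start hydrolysis, and exchange factors such as HSPH1 and BAG3 release the ADP. HSP90 takes over clients from HSP70, many of them kinases and steroid receptors, and small heat shock proteins such as HSPB1 hold unfolded proteins without ATP. When unfolded proteins accumulate, HSF1 forms trimers, binds heat shock elements in promoters and raises the transcription of the inducible members. A heat shock element is a run of the 5-base unit NGAAN in alternating orientation.

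Some of the promoter windows hold matches to these letters. The bases shown here were taken from RefSeq (GRCm38.p6), and capitals mark the GAA and TTC units. They are shown because heat shock elements are the sequences through which genes of this kind are known to be induced together.

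Hspa1a, bases -134 to -75 from the start, chr17:34972231-34972290, minus strand: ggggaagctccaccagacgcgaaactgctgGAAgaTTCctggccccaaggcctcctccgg
Hspa1b, bases -134 to -75, chr17:34959313-34959372, minus strand: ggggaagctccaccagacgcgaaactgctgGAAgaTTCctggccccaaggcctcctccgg
Hspb1, bases -134 to -75, chr5:135887785-135887844, plus strand: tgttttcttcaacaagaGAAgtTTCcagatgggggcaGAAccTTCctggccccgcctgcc
Between Hspe1 and Hspd1, bases -98 to -69 from the Hspe1 start, chr1:55088050-55088079, plus strand: cacggtccgTTCtaGAAccTTCcgGAAggc
Hsph1, bases 29 to 50, chr5:149636287-149636308, minus strand: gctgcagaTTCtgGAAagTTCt

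The windows of Hspa1a and Hspa1b were the same at 60 of 60 bases and held a single pair of units. Hspb1 held 2 such pairs. The stretch shared by Hspe1 and Hspd1, which are transcribed away from each other, held 4 alternating units, and it lies in an annotated 5′ exon of Hspd1. In windows from 250 bases before to 50 after each annotated start, 3 alternating units (TTCNNGAANNTTC or GAANNTTCNNGAA, each the reverse complement of the other, so that both strands are read) were found in 2 of the 7 genes with an entry, Hsph1 and Hspd1. The same letters occurred in 0.662% of the 27025 genes of the table. A pair of units (GAANNTTC or TTCNNGAA, each its own reverse complement and contained in the longer run) was found in 6 of the 7, all but Dnajb1, and in 17.0% of all genes. Hspa8, Hsp90aa1 and Hsf1 had no entry. A match is a description of the letters and not a site shown to be bound.

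**Figure D1:**
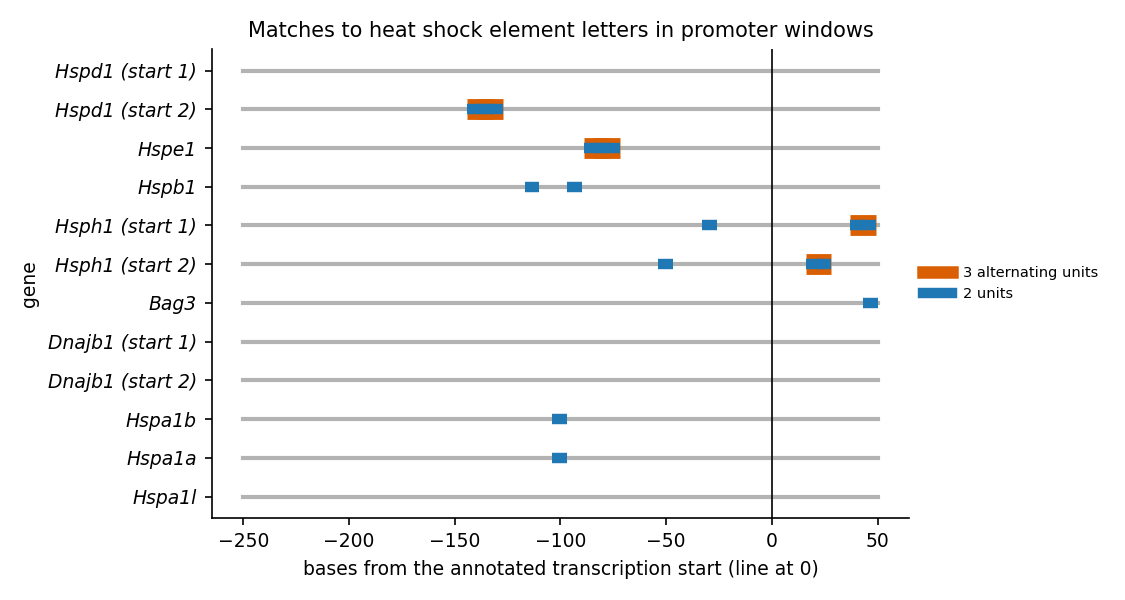
Positions of heat shock element letters in the promoter windows of the heat shock genes with an entry and of Hspe1 and Hspa1l, with the distance in bases from the annotated start on the x axis and 1 row per annotated start. Grey lines are the windows, blue bars pairs of units and orange bars 3 alternating units; the matches of Hspb1, Hspa1a and Hspa1b lie about 100 bases before the start, and those of Bag3 and part of those of Hsph1 after it.

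The HSP70 group held both the most abundant of these genes and the one with the largest PMA ratio. Hspa8 (chromosome 9, 40800984 to 40805200, plus strand, GRCm38) encodes the constitutive cytosolic HSP70. Its FPKM was 1051 in 427 cells with DMSO, 1045 with PMA, 1227 in SP2bKD cells with DMSO, 1172 with PMA, 1059 in GFP-sorted cells and 465.4 with EICD. The first 5 values lay within 1.17-fold of each other, and the value with EICD was 44.5% of the lowest of them.

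Hspa1a and Hspa1b, neighbouring genes without introns, encode the inducible cytosolic HSP70. Hspa1b lies at chromosome 17, 34956436 to 34959238, and Hspa1a at 34969190 to 34972156, both on the minus strand, and 1 row from 34956433 to 34977071 covered both. It also overlaps Gm10501 on the same strand, Gm20481 on the other, and the start of Hspa1l, a testis relative on the plus strand that also had its own row. Their coding sequences were 99.4% identical, with 11 differing positions in an alignment of 1926, and 47.1% of the 100-base stretches of the Hspa1a transcript were also in that of Hspa1b. The remaining stretches differ between the genes, but the single row merges both, so its value cannot tell them apart, and it is called Hspa1a/Hspa1b here. Against Hspa8 the coding identity of Hspa1a was 73.9%, and no 100-base stretch was shared. The first 60 coding bases (GRCm38, GENCODE M21) show both relations, with capitals marking the 17 bases of Hspa8 that differ from Hspa1a.

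Hspa1a, chr17:34971866-34971925, minus strand: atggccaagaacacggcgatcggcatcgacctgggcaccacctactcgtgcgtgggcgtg
Hspa1b, chr17:34958948-34959007, minus strand: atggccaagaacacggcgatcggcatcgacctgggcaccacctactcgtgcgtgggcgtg
Hspa8, chr9:40801923-40801982, plus strand: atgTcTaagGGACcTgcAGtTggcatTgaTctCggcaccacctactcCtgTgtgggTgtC

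In 427 cells the Hspa1a/Hspa1b row stood at 113.8 FPKM with DMSO and at 52.2 with PMA. SP2bKD cells gave 103.0 without and 60.01 with PMA. It was 115.2 in GFP-sorted cells and 75.3 with EICD. Both PMA libraries were therefore the lowest of the 6, the EICD library came next, and the 3 remaining libraries lay close together at the top.

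Hsph1 (chromosome 5, 149614287 to 149636376, minus strand) encodes the cytosolic HSP110, a nucleotide exchange factor of HSP70. It was at 244.0 and 277.9 FPKM in 427 cells with DMSO and PMA, 270.5 and 336.8 in SP2bKD cells, 248.2 with GFP and 166.8 with EICD. Its level with EICD was again below all other libraries, at 68.4% of the lowest.

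Hsp90aa1 (chromosome 12, 110690605 to 110702728, minus strand) encodes the inducible form of cytosolic HSP90. Its FPKM was 448.7 and 465.6 in 427 cells with DMSO and PMA, 477.1 and 518.9 in SP2bKD cells, 383.6 with GFP and 222.4 with EICD. The order of its libraries placed both sorted ones lowest, and the value with EICD was 58.0% of that with GFP, the next lowest.

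The cofactors and the small heat shock protein varied less. Dnajb1 (chromosome 8, 83608175 to 83611902, plus strand), the main J-domain partner of inducible HSP70, ranged from 40.9 FPKM in SP2bKD cells with DMSO to 57.1 in 427 cells with PMA, with 54.3, 45.6, 46.6 and 46.6 in 427 cells with DMSO, SP2bKD cells with PMA, GFP and EICD. Bag3 (chromosome 7, 128523543 to 128546981, plus strand), which links HSP70 to small heat shock proteins and to selective autophagy, was at 25.7 and 21.7 in 427 cells with DMSO and PMA, 24.4 and 22.4 in SP2bKD cells, 31.4 with GFP and 22.7 with EICD. Its row spans a further annotated gene on the same strand, 2610306O10Rik. Hspb1 (chromosome 5, 135887919 to 135889563, plus strand) was at 359.4 and 309.1 in 427 cells with DMSO and PMA, 239.3 and 260.4 in SP2bKD cells, 346.4 with GFP and 296.4 with EICD. None of these 3 genes was lowest with EICD, and the highest library stood above the lowest by 1.4-fold for Dnajb1, 1.45-fold for Bag3 and 1.5-fold for Hspb1.

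Hspd1 (chromosome 1, 55077835 to 55088243, minus strand) was at 406.3 and 439.8 FPKM in 427 cells with DMSO and PMA, 325.0 and 385.6 in SP2bKD cells, 313.5 with GFP and 231.3 with EICD. The value with EICD was 73.8% of the lowest other library. Its cochaperonin gene Hspe1 shares 112 bases with it on the opposite strand, and no strand setting is given in the sources used here, so reads in that overlap cannot be assigned. Hspe1 was at 292.9 FPKM with GFP and 211.1 with EICD.

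Hsf1 (chromosome 15, 76477364 to 76500972, plus strand) was the steadiest of the genes. It was at 40.7 and 46.0 FPKM in 427 cells with DMSO and PMA, 35.5 and 39.7 in SP2bKD cells, 42.5 with GFP and 43.2 with EICD, a 1.3-fold range. HSF1 is mainly controlled through its protein, so its transcript level is no measure of its activity.

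Ordered by mean FPKM over the 6 libraries, Hspa8 (1003) was followed by Hsp90aa1 (419.4), Hspd1 (350.3), Hspb1 (301.8), Hsph1 (257.4), Hspa1a/Hspa1b (86.6), Dnajb1 (48.5), Hsf1 (41.3) and Bag3 (24.7). The ranges over libraries overlapped between neighbours in this order, except between Hsph1 and Hspa1a/Hspa1b and between Hsf1 and Bag3. Those of Hspa8 and Hsp90aa1 overlapped through the EICD library of Hspa8 alone.

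**Figure D2:**
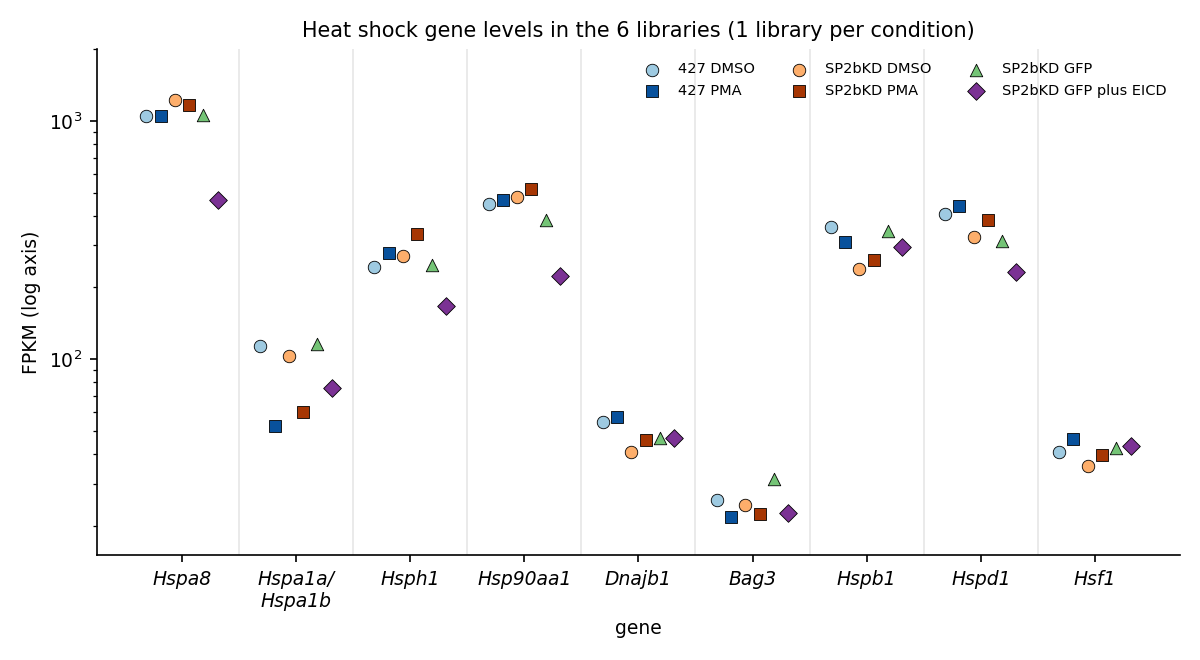
FPKM of the 9 rows (log axis) in each of the 6 libraries, 1 point per library and no error bar since there is 1 library per condition. The purple diamonds (GFP plus EICD) lie below all other points for Hspa8, Hsph1, Hsp90aa1 and Hspd1, and the dark squares (PMA) lie lowest for Hspa1a/Hspa1b.

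The comparison of DMSO and PMA covers all actions of PMA, and no library separates the shedding of epithin from the others. Hspa1a/Hspa1b was the gene called in both lines, and it was lower with PMA. It was 2.18-fold lower in 427 cells (log2 ratio -1.12, 95% counting interval -1.18 to -1.07) and 1.72-fold lower in SP2bKD cells (-0.78, -0.83 to -0.73). Counting intervals rest on the longest annotated transcript and cover counting error only, so they say nothing of how cultures vary. The gene was thus lower in 2 of 2 lines, by more than the shift of all loci. Their median log2 ratio was -0.12 in 427 cells and -0.15 in SP2bKD cells. With this row included, 3.56% of the loci tested in 427 cells and 9.87% in SP2bKD cells had a ratio as low.

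The other 8 rows stayed within 1.5-fold. In 427 cells 1 of 9 was called lower and 0 higher, where 14.4% of the loci tested were called lower and 8.10% higher, and in SP2bKD cells the same counts stood beside 16.5% lower and 7.89% higher. These counts are near the background. Low loci made up much of it: among loci with a mean FPKM of 10 to 100, the class of Hspa1a/Hspa1b here, 7.38% were lower in 427 cells and 9.69% in SP2bKD cells, and from 100 upward 1.83% and 4.04% were. The largest positive log2 ratios belonged to Hsph1, at 0.19 in 427 cells and 0.32 in SP2bKD cells. Hspd1 followed in SP2bKD cells at 0.25, and Hspa8 was at -0.01 and -0.07. The median over the 9 rows was 0.05 in 427 cells and 0.12 in SP2bKD cells. Positive ratios in 427 cells became negative when libraries were scaled to the same FPKM sum, which took Hsph1 to -0.06.

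The PMA responses of both lines were compared as the log2 ratio in SP2bKD cells minus that in 427 cells. No row differed by more than 1.5-fold in either direction, beside 3.65% of loci called higher and 5.33% called lower. Hspa1a/Hspa1b had a difference of 0.34, from -1.12 to -0.78, and Hspb1 one of 0.34, from -0.22 to 0.12. Without replicates these differences could not be tested.

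Between the lines, the direction differed among the heat shock genes, and scaling to the same FPKM sum changed it. With DMSO, Hspb1 was 1.5-fold lower in SP2bKD than in 427 cells (-0.59, counting interval -0.64 to -0.54), a value that lay at the threshold. Dnajb1 (-0.41), Hspd1 (-0.32), Hsf1 (-0.20), Hspa1a/Hspa1b (-0.14) and Bag3 (-0.07) were also below 0, while Hspa8 (0.22) and Hsph1 (0.15) were above, and all 9 were above 0 when the libraries were scaled to the same FPKM sum. With PMA 4 of these 6 were below 0, and Hspa1a/Hspa1b (0.20) and Bag3 (0.05) were above it. Of the 4, Hspb1 was at -0.25, Dnajb1 at -0.32, Hspd1 at -0.19 and Hsf1 at -0.21, and again all 9 were above 0 under that scaling. Under the alternatives that do not scale to an FPKM sum, every row kept its sign with DMSO and with PMA. Hspb1 with DMSO then ranged from -0.639 to -0.585. Of the FPKM sum with DMSO, the 10 largest loci held 93.9% in 427 cells and 88.2% in SP2bKD cells. The DMSO and PMA pairs use different libraries of the same lines.

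With DMSO 1 of 9 rows was called lower and 0 higher, beside 6.30% and 8.25% of the loci tested. With PMA 0 of 9 were called in either direction, beside 6.22% lower and 6.22% higher. These counts do not set the genes apart from the background.

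GFP-sorted SP2bKD cells differed from DMSO-treated SP2bKD cells in transfection, sorting, the DMSO vehicle and time. No serum-free step is listed for the sorted cells, and the clone of the DMSO-treated cells is not given. The parts of these in the ratios cannot be told apart. None of the 9 rows passed 1.5-fold, beside 12.0% of loci lower and 8.01% higher. Hspb1 was nearest, at 0.53 (239.3 and 346.4 FPKM), followed by Bag3 at 0.36 and Hsf1 at 0.26. Hsp90aa1 was lowest, at -0.31 with 477.1 and 383.6 FPKM. The cells that served as the control of EICD thus had Hspa1a/Hspa1b, Dnajb1, Bag3, Hspb1 and Hsf1 above the DMSO-treated cells, and Hspa8, Hsp90aa1, Hsph1 and Hspd1 below them.

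**Figure D3:**
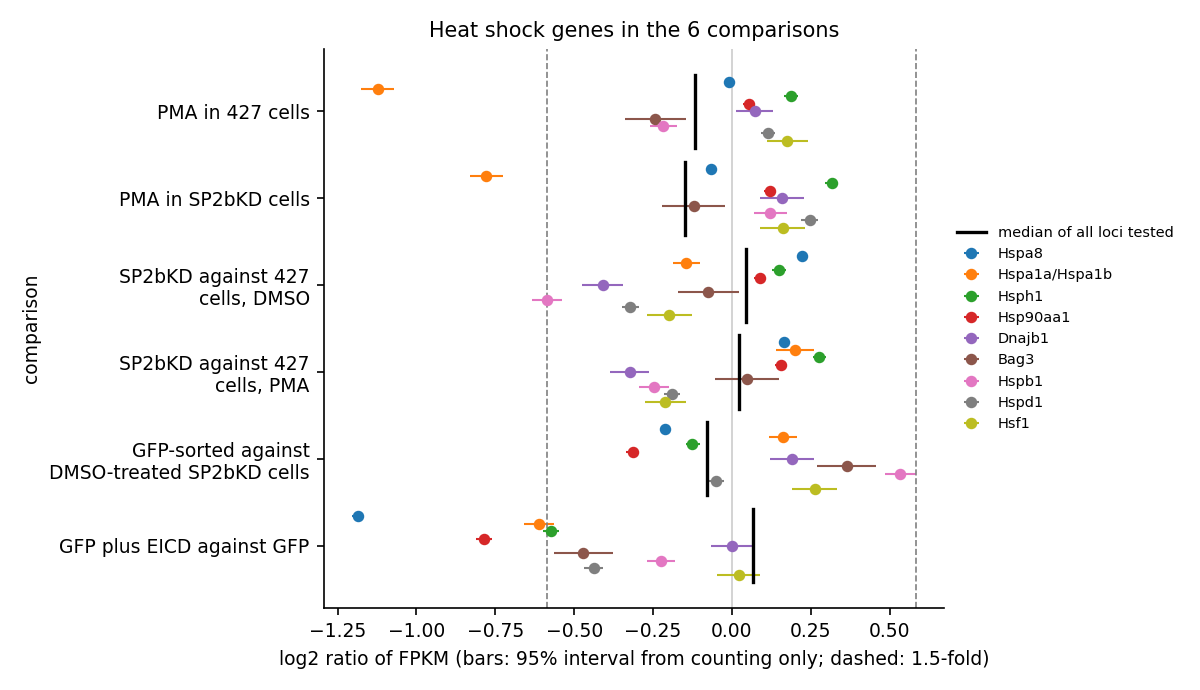
Log2 ratio of FPKM (x axis) of the 9 rows in each of the 6 comparisons, with bars for the 95% counting interval, dashed lines at 1.5-fold and a black tick at the median of all loci tested. Hspa1a/Hspa1b stands apart on the left with PMA, and in the EICD comparison all 9 rows lie below the black tick.

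GFP plus EICD was compared with GFP, 1 library each, and this comparison gave the widest set of lower heat shock genes. The part of EICD itself in these values was not tested. Hspa8 was 2.28-fold lower with EICD (log2 ratio -1.19, counting interval -1.20 to -1.17), Hsp90aa1 1.72-fold (-0.79, -0.81 to -0.76) and Hspa1a/Hspa1b 1.53-fold (-0.61, -0.66 to -0.57). Just inside the threshold were Hsph1 (-0.57), Bag3 (-0.47) and Hspd1 (-0.44), and Hspb1 was at -0.22. Dnajb1 (-0.00) and Hsf1 (0.02) were at nearly equal levels in both libraries.

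Of the 9 rows 3 were called lower, where 2.67% of the 10687 loci tested were, and 0 were called higher, where 10.4% were. The median of the 9 was -0.47 and that of all loci 0.07, and 9 of 9 lay below the latter. With Hspa8 included, 34 loci, or 0.318% of those tested, had a ratio as low as that of Hspa8, and 1.00% one as low as that of Hsp90aa1. In this comparison ratios also moved with level: the median was 0.20 for loci with a mean FPKM of 1 to 10, 0.04 from 10 to 100 and -0.17 from 100 upward, where 4.11% of 851 loci were called lower. Hspa8, Hsp90aa1, Hsph1, Hspb1 and Hspd1 belong to that highest class, and 2 of these 5 were called. The part of this trend with level in their values was not tested. Hspa8 and Hsp90aa1 were called at 1.5-fold under every scaling tried, whereas Hspa1a/Hspa1b was at -0.52 when libraries were scaled to the FPKM sum without the 10 largest loci. With the sum over all loci 6 of the 9 were lower, and over all loci 810 were then lower and 685 higher, in place of 285 and 1108.

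**Figure D4:**
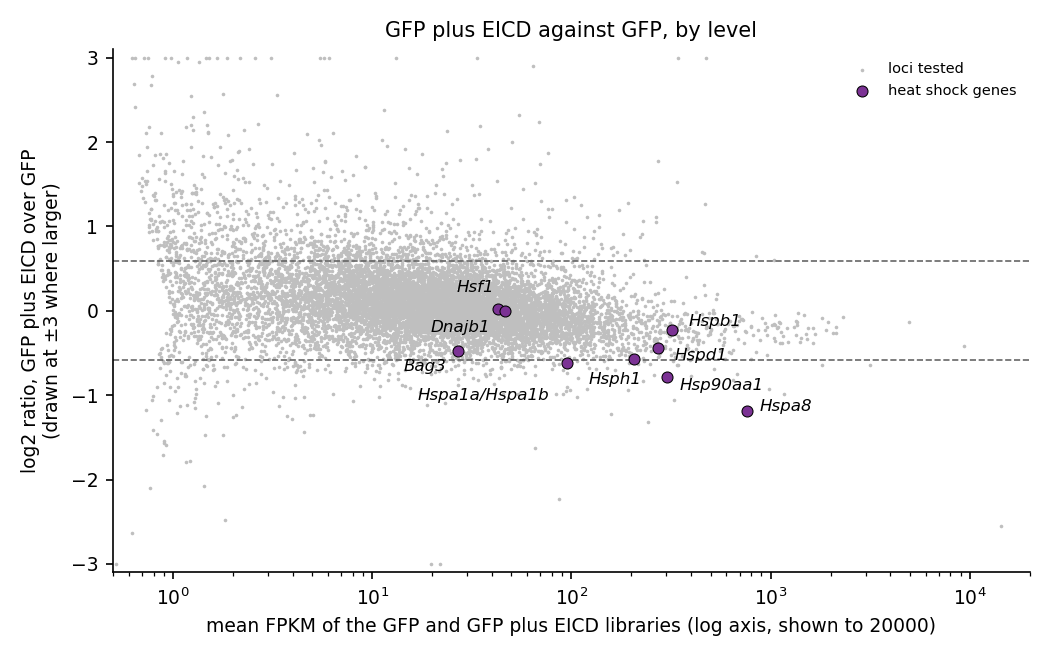
Log2 ratio of FPKM with GFP plus EICD over GFP (y axis) against the mean FPKM of both libraries (log axis), with 1 grey point per locus tested and the 9 heat shock rows in purple. The grey cloud slopes down toward high levels, and Hspa8 and Hsp90aa1 lie at or below its lower edge at their level, past the dashed line of 1.5-fold.

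The Hspa8 and Hsp90aa1 values with EICD were set against all libraries, since the GFP library itself differed from the others. Hspa8, Hsph1, Hsp90aa1 and Hspd1 were lower with EICD than in each of the other 5 libraries. For Hspa8 the gap to the nearest library (465.4 against 1045) was wider than the whole spread of the other 5, which was 1.17-fold. For Hspa1a/Hspa1b the value with EICD (75.3) lay between the PMA libraries and the rest, so that the groups overlapped.

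Chaperone genes were also taken from lists by role, 86 cytosolic and mitochondrial genes of which 81 had a row and 70 were tested. The 9 rows described above are among the 70, so the list counts partly repeat them. No row matched Hspa1b, Hspbp1, Dnaja3, Cct6a or Pfdn5. With EICD 56 of the 70 were below 0, 8 were called lower and 3 higher. Over all loci tested, 41.8% were below 0, and the shares called were the 2.67% lower and 10.4% higher given above. By level, 74.9% were below 0 among loci with a mean FPKM of 100 or more, 44.0% from 10 to 100 and 29.4% from 1 to 10. The listed genes fall in each of these classes, and the part of level in the counts that follow was not tested. The lower ones were Hspa8, Hsp90aa1 and Hspa1a/Hspa1b with Hsp90ab1, Ahsa1, Dnaja1, Cct3 and Pfdn4, and the higher ones were Hspa9, Lonp1 and Hspb6.

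In the HSP90 list 12 of 13 genes were below 0 (median -0.31). Hsp90ab1, the constitutive cytosolic HSP90, was at 2206 FPKM with GFP and 1413 with EICD (-0.64), and Ahsa1, an activator of its ATPase, was at 120.6 and 79.2 (-0.61). Stip1, which passes clients from HSP70 to HSP90, was at 183.3 and 147.8 (-0.31). Both cytosolic HSP90 genes were thus called lower.

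In the HSP70 and HSP110 list 7 of 7 were below 0 (median -0.55), with Hspa8, Hspa1a/Hspa1b and Hsph1 among them. The others were Hspa4l (-0.55), Hspa4 (-0.21), Hspa2 (-0.175) and Hspa14 (-0.01), and none of these was called. The J-domain list was near 0 (median -0.05), with 1 of 14 called, Dnaja1 at 105.2 and 67.8 FPKM (-0.63). The TRiC and prefoldin genes, whose products fold actin and tubulin, were all below 0 (12 of 12, median -0.32), with Pfdn4 at 48.3 and 29.7 FPKM (-0.70) and Cct3 at 185.5 and 115.7 (-0.68). Among exchange and ubiquitin cofactors 7 of 8 were below 0 (median -0.12) and 0 were called.

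Small heat shock proteins had 4 genes tested (median -0.08), of which Hspb6, at 4.80 and 7.98 FPKM, was called higher (0.73). Heat shock factors had 3 tested, with a median of -0.13 and 0 called. The mitochondrial list was mixed, with 5 of 9 above 0 (median 0.06). Hspa9, the mitochondrial HSP70, was at 184.1 FPKM with GFP and 279.4 with EICD (0.60), and Lonp1, a protease of the matrix, was at 53.1 and 85.8 (0.69), while Hspd1 and Hspe1 (-0.47) went the other way.

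Chaperones of the endoplasmic reticulum, which answer to another stress pathway, gave a comparison. Of 12 tested 11 were below 0 with EICD (median -0.36) and 1 was called lower, Calr at 389.7 and 259.1 FPKM (-0.59). Hspa5, their HSP70, was at 367.9 and 289.3 (-0.35). Lower values with EICD were therefore found in the lists of several compartments.

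**Figure D5:**
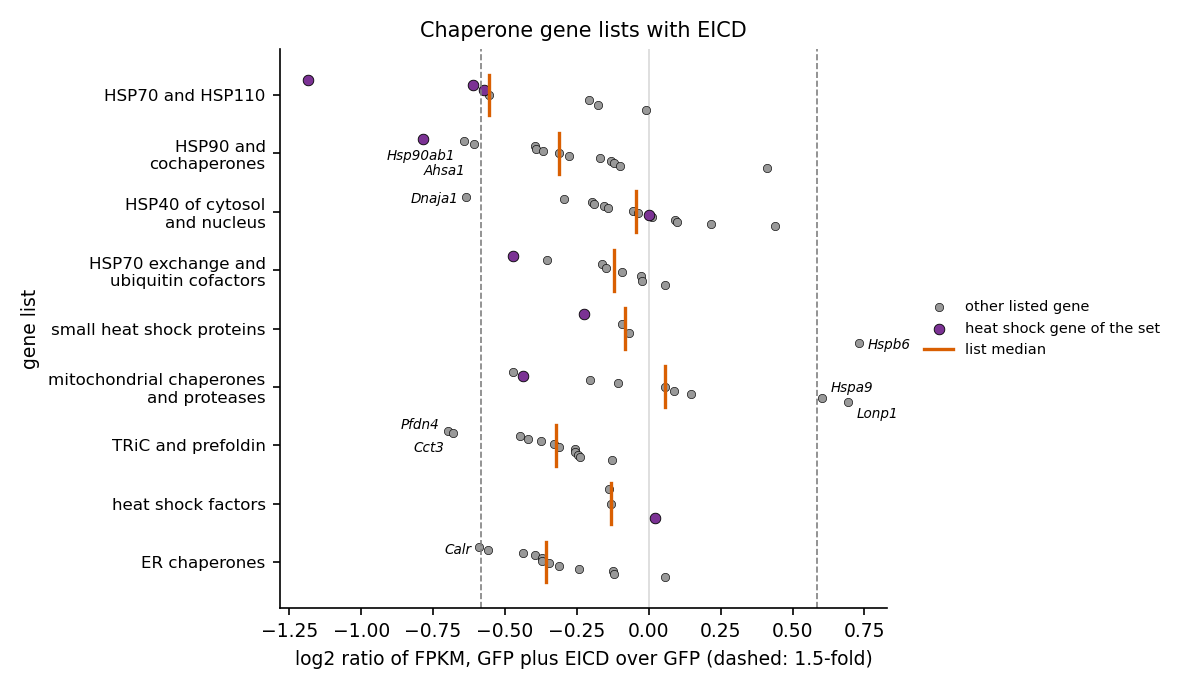
Log2 ratio of FPKM with GFP plus EICD over GFP (x axis) for each tested gene of 9 chaperone lists, with the described heat shock genes in purple, other genes in grey and list medians in orange. Grey genes past the dashed line of 1.5-fold are named, and the medians of 8 of the 9 lists lie below 0.

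In the wider lists with PMA, 1 of the 70 was called higher and 4 lower in 427 cells. In SP2bKD cells 1 was higher and 7 lower, and Hspa1a/Hspa1b was among the lower in both. The shares of all loci were 8.10% higher and 14.4% lower, and 7.89% and 16.5%. For loci with a mean FPKM of 10 to 100 the lower shares were 7.38% in 427 cells and 9.69% in SP2bKD cells, and from 100 upward 1.83% and 4.04%. The lists are thus not shown to have fewer lower calls than loci of like level. Dnajb4, a J-domain gene, was at 10.2 FPKM with DMSO and 4.01 with PMA in 427 cells (-1.35), and at 10.7 and 4.11 in SP2bKD cells (-1.37). Dnajb2 was at -0.78 in both. Grpel2, an exchange factor of mitochondrial HSP70, was at 20.9 and 48.4 in 427 cells (1.21) and at 12.9 and 29.4 in SP2bKD cells (1.19). The highest after Grpel2 were Pfdn4 in 427 cells (0.44) and Ppid, an HSP90 cochaperone, in SP2bKD cells (0.52).

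Between the lines Cryab, a small heat shock protein gene, was lower in SP2bKD cells with DMSO (22.5 and 11.6 FPKM, -0.96) and with PMA (19.4 and 10.8, -0.85), and it was lower still in GFP-sorted cells (3.85, -1.59 against DMSO). Hspb8, another gene of that family, was at 83.0 with DMSO and 153.5 with GFP (0.89). Small heat shock protein genes thus differed in direction in the sorted cells. In the same comparison Dnajb2 was at 27.8 FPKM with DMSO and 14.65 with GFP (-0.925), and Dnajb4 at 10.7 and 16.1 (0.593). Fkbp5, an HSP90 cochaperone, was higher in SP2bKD cells with DMSO (12.2 and 20.6, 0.75), and Hsp90ab1 was at 1773 and 2594 (0.548). With PMA, Grpel2 was at 48.4 FPKM in 427 cells and 29.4 in SP2bKD cells (-0.721). Hsp90b1 (459.4 and 693.6, 0.594) and Pdia4 (91.3 and 137.4, 0.59), from the list of the endoplasmic reticulum, were higher in SP2bKD cells with PMA.

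The loci with the pattern most like each of the 3 genes of widest range were sought by root mean square distance of centred log2 FPKM. The distance was taken over the 6 libraries, among 7267 loci with a symbol and a mean FPKM of 10 or more. The heat shock genes described here and all genes of the chaperone lists were left out of this pool. Whether another chaperone lay nearer was therefore not examined. For Hspa8 the nearest was Tuba1a, an alpha tubulin, at a distance of 0.12, with 344.7 FPKM with GFP and 138.2 with EICD. It was followed by Rpp25l (0.18) and Pgd (0.18). For Hsp90aa1 they were Wrb, Ubfd1 and Gclm, at 0.09 to 0.10. For Hspa1a/Hspa1b they were Gpsm2 (0.11), Hexim1 (0.15) and Dlg3 (0.16). Hexim1, which holds the elongation factor P-TEFb inactive, was at 20.0 and 9.99 FPKM in 427 cells with DMSO and PMA and at 23.5 and 11.2 in SP2bKD cells. These distances rest on 6 libraries, 1 per condition, and are descriptions.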

How the data were processed

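Poly(A) RNA of the 6 libraries was sequenced as paired reads of 100 bases. By the study's methods, alignment was by TopHat 2.1.1, FPKM came from Cufflinks 2.1.1 and normalization from Cuffdiff 2.1.1. The submitters' processing notes name these on GRCm38, and also STAR 2.4.0b with no role. The deposited values were FPKM for 25001 loci, 22601 of them with a symbol, in 1 table per library. No counts were given, so the depth was estimated from the steps of low FPKM values times transcript length. FPKM depends on library composition, and the 10 largest loci held 85.6% to 94.2% of the FPKM sum.

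Log2 ratios were computed after adding 0.01 FPKM to both values. A locus counted as tested if it had a symbol and either library reached an FPKM of 1. Ratios past 1.5-fold were called, with no p-value. The members and lists were chosen with earlier results of these data known. Named were every member in every library and, per comparison, the 2 highest and 2 lowest listed chaperone genes at an FPKM of 10 or more that are not members, with Hspa5, Hsp90ab1, Hspe1, Hspa9 and Stip1 and the 3 loci nearest to each of the 3 members of widest range. Ahsa1, Dnaja1, Hspb6, Calr, Hspa4l, Hspa4, Hspa2 and Hspa14 were named after their values were seen. The 95% counting intervals of the log2 ratios are normal approximations that treat the estimated fragments as Poisson counts. As 5 of the 6 libraries enter more than 1 comparison, ratios were not correlated between comparisons. Alternatives were other added amounts, filters, scalings, folds and backgrounds. The computation used Python 3.11.15, NumPy 2.4.6, pandas 2.3.3, SciPy 1.17.1, Biopython 1.88 and matplotlib 3.10.9, and was tested on simulated data.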

Additional observations from a re-analysis of the deposited data

Results flagged for a closer look

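A few ratios had opposite signs in paired comparisons, with 1 library per condition, so none of these differences was tested, and each is a difference of log2 ratios. Between the lines (SP2bKD over 427), Hspa1a/Hspa1b was at -0.14 under DMSO and at 0.20 under PMA, a difference of 0.34. The PMA ratio of Hspb1 was -0.22 in 427 cells and 0.12 in SP2bKD cells, a difference of 0.34. The line ratio of Bag3 was -0.07 with DMSO and 0.05 with PMA, 0.12 apart. Hsp90ab1 had a PMA ratio of 0.15 in 427 cells and -0.15 in SP2bKD cells, a difference of -0.30. Hspa5 had the widest one, 0.86: its PMA ratio was -0.39 in 427 cells and 0.47 in SP2bKD cells, and its line ratio -0.79 with DMSO and 0.07 with PMA. Its FPKM was 603.0 and 461.7 in 427 cells and 349.9 and 485.4 in SP2bKD cells with DMSO and PMA.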

How the results depend on the processing

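No paired analysis was possible because there is 1 library per condition, and leaving out a library would remove a condition. An additive model of line and PMA over 4 libraries, whose error would be the difference between the lines, was not run. Summary values were the counts of members called, the medians of the members and the count with promoter elements. A count was scored as kept when equal to or within 1.5-fold of its main value. A median was scored as kept when it stayed between the main member ratios next to the lowest and next to the highest. By these rules, 191 values recomputed under an alternative were kept and 11 moved. A median could change sign and still be scored as kept. Scaling to the same FPKM sum moved the median of all loci from 0.05 to 1.02 between the lines with DMSO, from 0.02 to 1.28 with PMA, from -0.12 to -0.36 with PMA in 427 cells, and from 0.07 to -0.12 with EICD. It took the loci called higher and lower from 883 and 675 to 9567 and 107 between the lines with DMSO, from 654 and 654 to 10123 and 79 with PMA, from 862 and 1534 to 461 and 2907 with PMA in 427 cells, and from 1108 and 285 to 685 and 810 with EICD. Scaling by the median ratio gave 1048 and 1142 with PMA in 427 cells and 1111 and 1215 in SP2bKD cells (838 and 1749 as deposited). Under the FPKM-sum scaling, SP2bKD against 427 cells had 7 members higher, 0 lower and a median of 0.82 with DMSO, and 9 higher and a median of 1.29 with PMA. Under the same FPKM-sum scaling, Hspb1 between the lines with DMSO reversed to 0.38, and 6 members were lower with EICD. Scaling by the median ratio gave 1 member higher in GFP-sorted against DMSO-treated cells. At 2-fold, 0 members were lower with PMA in SP2bKD cells, 0 between the lines with DMSO and 1 with EICD. The pair of units raised the genes with promoter elements from 2 to 6. Hspa8 with EICD ranged from -1.37 to -1.09 and Hspa1a/Hspa1b with PMA in 427 cells from -1.37 to -1.03 over all alternatives. Summing rows of a symbol, the other filters on low FPKM and the background of all loci could not change a member value. Each member with a row had a symbol, 1 row and an FPKM above 10 in every library. Values under these alternatives are counted among the 191. The FPKM sum without the 10 largest loci and the background of loci at 100 FPKM or more, were chosen after seeing the data.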
